A study of Homo sapiens with 9 samples.

Results

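The mRNAs of 47 enzymes and transporters of glycolysis, the tricarboxylic acid (TCA) cycle and the pentose phosphate pathway were followed across 9 RNA-seq libraries of SKMEL28 cells, an established human melanoma line. The members were the genes of the deposited tables whose symbol equalled 1 of 47 listed names. The tables held 48162 genes, of which 15776 had enough reads to be tested, and all 47 enzymes were among these. SDHD was listed under a second identifier at 0 counts in every library, and that entry was not tested. Knockdown used lentiviral short hairpin RNAs. The shCont cells carried a hairpin against GFP, a protein that these cells do not make, the shp16 cells a hairpin against p16, and the shp16+shATR cells hairpins against both p16 and the DNA damage kinase ATR, with 3 libraries in each group. All groups were grown in DMEM with 5% serum and selected in puromycin at 1 µg/ml for 3 days. For the mRNA of LSS, an enzyme of cholesterol synthesis, the study names 3 technical replicates of 1 experiment. The 3 libraries of a group, which their labels call only replicates, are taken here to be these. The p-values below are therefore read as measuring the spread between such libraries and not that between infections. Only hairpin-carrying cells were compared, and the sources used here do not say which ATR hairpin was sequenced or whether shp16 cells received a second control virus.

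Glycolysis splits glucose into pyruvate in the cytosol. Its preparatory steps spend ATP on phosphorylated sugars, its pay-off steps return ATP and NADH, and lactate dehydrogenase turns pyruvate into lactate. Pyruvate dehydrogenase feeds pyruvate into the TCA cycle of the mitochondria, which oxidizes it and supplies precursors for biosynthesis, and the pentose phosphate pathway takes glucose 6-phosphate aside to make NADPH and ribose. Many tumour lines, melanoma among them, are known for a high flow through glycolysis. The question here was how the mRNAs of these enzymes differed with a hairpin against p16, and with one against ATR on top of it.

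Total counts ran from 17314662 to 23588174 per library. The hairpin targets were looked at first. ATR was at 5.57, 11.3 and 11.7 FPKM in shCont, at 11.3, 10.1 and 10.4 in shp16 and at 4.84, 4.85 and 4.98 in shp16+shATR, so that shCont replicate 1 lay near the knockdown level. CDKN2A, the gene of p16, was at 126, 87.7 and 80.4 FPKM in shCont and at 60.9, 72.9 and 77.8 in shp16, with no overlap. ATR fell in shp16+shATR against shp16 by 1.12 on the log2 scale, with a standard error (SE) of 0.22 and an adjusted p of 0.0128 from the quasi-likelihood test of edgeR, whereas CDKN2A had a log2 fold change of −0.48 in shp16 against shCont that did not pass the threshold (adjusted p = 0.0723 in the same edgeR test). Since reads were counted by gene, p16 could not be told from other CDKN2A transcripts. Replicate 1 of shCont and replicate 1 of shp16 stood apart from the other libraries of their groups. Their counts differed from those of the other libraries by a chi-square per degree of freedom of 35.3 to 80.2, against 1.92 to 9.45 for every other pair within a group. All 8 melanocytic markers (MITF, TYR, TYRP1, DCT, PMEL, MLANA, SOX10, S100B) were expressed in all 9 libraries, and TYRP1 and S100B fell in shp16 by 0.43 and 0.68 on the log2 scale. In shp16+shATR against shp16, TYRP1 changed by −0.88 and S100B by 0.67, and both passed. PTPRC and CD3E, which define leukocytes and T cells, were at 0 counts in all 9 libraries. The basal keratins KRT5 and KRT14 had at most 3 counts in any shCont library and 39 to 63 counts in each shp16 library and 7 to 53 in each shp16+shATR library, which is under 2 FPKM, and their part in any result below was not tested.

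The levels of the members are given as FPKM, that is reads scaled by gene length and by library size, computed here from the deposited counts with library sizes scaled by TMM. The highest level in every library was that of ENO1, an enolase of the pay-off steps. ENO1 stood at 3034, 2125 and 2166 FPKM in shCont, at 3528, 2655 and 2647 in shp16, and at 2473, 2379 and 2723 in shp16+shATR. Replicate 1 of shCont and replicate 1 of shp16 were the highest of their groups, and the groups overlapped. Besides ENO1, the members with a mean of at least 1000 FPKM over the 9 libraries were PKM, GAPDH and LDHA, making 4 of 47. The sugar-cleaving aldolase ALDOA followed just below, at 671 to 1141 FPKM. In all, 17 members had a mean of at least 100 FPKM and 45 a mean of at least 10. The 2 below that were IDH3A, a subunit of the NAD-dependent isocitrate dehydrogenase, at 7.61 to 11 FPKM, and the aldolase ALDOC, which stayed under 1 FPKM. The 47 members together took 2.36% to 2.87% of the reads of a library.

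**Figure D1:**
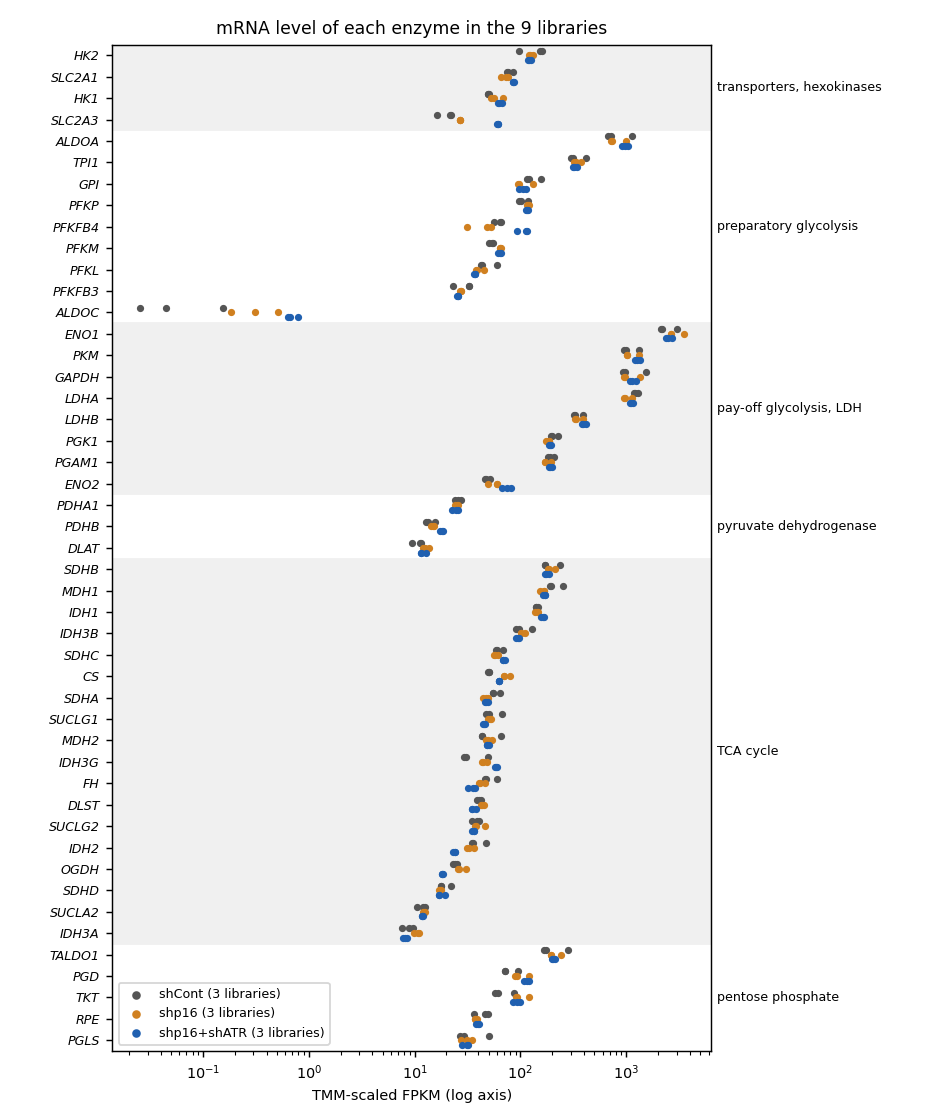
Level of each of the 47 members in the 9 libraries, as TMM-scaled FPKM on a log axis, with 1 point per library coloured by group and members ordered by pathway step and mean level. For most members the points of the 3 groups lie close together, SLC2A3 and PFKFB4 show their 3 shp16+shATR points to the right of all others, and ALDOC lies alone below 1 FPKM.

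The hairpin against p16 was compared with the control hairpin to ask which of these mRNAs differed between them. Of the 47 members, 4 rose in shp16 against shCont and none fell at an adjusted p under 0.05, which is 8.51% of them, whereas 14.8% of all genes tested passed in that comparison, 7.23% rising and 7.59% falling. These were the glucose transporter SLC2A3, the aldolase ALDOC, citrate synthase CS and the transketolase TKT. At an unadjusted p under 0.05 the count was 12 members, but the share of all genes at that cut was not computed. Over the members the median log2 fold change was −0.0058, beside −0.016 over all genes tested, and 44 of 47 members lay within 0.5 of 0 in either direction.

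Among the transporters and hexokinases, which bring glucose in and phosphorylate it, 1 of 4 passed. SLC2A3 (GLUT3, ENSG00000059804, chromosome 12, 8071826 to 8088871 on the minus strand, GRCh37 as in the tables) was at 16.4, 21.5 and 22.1 FPKM in shCont and at 27.0, 26.7 and 27.1 in shp16. Every shp16 library lay above every shCont library, with the lowest value in shCont replicate 1. Its log2 fold change was 0.43 (SE 0.12, edgeR adjusted p = 0.0314). The main transporter SLC2A1 (GLUT1) had a log2 fold change of −0.14, HK1 of 0.23 and HK2, the hexokinase induced in many tumours, of −0.13.

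Of the 9 members of the preparatory steps, 1 passed. ALDOC had 2, 6 and 1 counts in shCont and 7, 13 and 21 in shp16, which is at most 0.516 FPKM. All shp16 libraries were above all shCont libraries, but 2 of the shCont libraries were under the floor of 3 counts. The fitted log2 fold change, which at such counts depends on the prior count, was 2.16 (SE 0.61, edgeR adjusted p = 0.0345). The other aldolase, ALDOA, was at 1141, 671 and 712 FPKM in shCont and at 999, 727 and 716 in shp16, with overlapping groups and a log2 fold change of −0.05. The phosphofructokinase subunits, which catalyse the committed step, had log2 fold changes of −0.26 for PFKL, 0.28 for PFKM and 0.16 for PFKP. PFKFB4, which makes and breaks down the phosphofructokinase activator fructose 2,6-bisphosphate, had the lowest of the 47 values at −0.49 (adjusted p = 0.0773 in the same edgeR test).

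None of the 8 members of the pay-off steps and lactate dehydrogenase passed. ENO1, the most abundant of them, had a log2 fold change of 0.27, and LDHA, the subunit that favours lactate, of −0.27 (edgeR adjusted p = 0.141). No member of pyruvate dehydrogenase passed either. PDHA1, the most abundant of its 3 subunits among the members, stood at 27.4, 24 and 26.0 FPKM in shCont and at 24.3, 25.1 and 25.9 in shp16. The groups overlapped at a log2 fold change of −0.04.

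In the TCA cycle 1 of 18 members passed. CS, the enzyme that condenses acetyl-CoA with oxaloacetate as carbon enters the cycle (ENSG00000062485, chromosome 12, 56665483 to 56694176 on the minus strand), stood at 50.1, 49.5 and 50.6 FPKM in shCont, at 79.6, 70.4 and 70.7 in shp16 and at 62.9, 62.3 and 62.2 in shp16+shATR. No library of any group overlapped with a library of another, with shCont lowest and shp16 highest. The log2 fold change in shp16 against shCont was 0.56 (SE 0.09, 95% interval 0.35 to 0.76, edgeR adjusted p = 0.00255). Among the 18 members listed for the cycle, the largest negative values were −0.38 for MDH1 and −0.30 for SDHA (adjusted p = 0.0578 and 0.0776 in the same edgeR test). MDH1 is the cytosolic malate dehydrogenase, and SDHA the succinate dehydrogenase flavoprotein.

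In the pentose phosphate pathway 1 of 5 members passed. TKT, which moves carbon between the pathway and glycolysis (ENSG00000163931, chromosome 3, 53258723 to 53290068 on the minus strand), stood at 86.9, 58.0 and 61.0 FPKM in shCont and at 121, 92.1 and 90.6 in shp16. Each shp16 library lay above each shCont library, although shCont replicate 1 came close to the lower shp16 values. The log2 fold change was 0.56 (SE 0.17, edgeR adjusted p = 0.0447). PGD, which makes NADPH in the oxidative branch, had a log2 fold change of 0.34 (adjusted p = 0.143 in the same test), and TALDO1 one of 0.01. Of these calls, CS passed at 0.05 in 20 of 21 alternative analyses, and SLC2A3, TKT and ALDOC in 8 of 21, 9 of 21 and 8 of 18. The count of 4 became 0 with the replicate number as a block in edgeR, where 2.79% of all genes passed, and 14 without shCont replicate 1, where 25.9% did. It was 1 without replicate 2 or 3 of shp16, beside 8.4% and 8.29% of all genes, and 1 without any 1 shp16+shATR library, beside 10.6% to 11.4%.

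Next, shp16+shATR was compared with shp16 to ask what the hairpin against ATR added. Of the 47 members, 4 passed, of which 2 rose and 2 fell, which is 8.51% of them beside 6.22% of all genes tested, 2.73% rising and 3.49% falling. SLC2A3 and PFKFB4 rose more than 2-fold, and the mitochondrial enzymes IDH2 and OGDH fell to 0.705 and 0.673 of their shp16 levels. The members' median log2 fold change was −0.021, beside 0.0021 over all genes tested. Here 14 members had an unadjusted p under 0.05, again without a share of all genes computed at that cut. The groups did not overlap for 21 members (44.7%), against 37.7% of all genes tested.

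SLC2A3 stood at 61.7, 60.3 and 62.0 FPKM in shp16+shATR, against 26.7 to 27.1 in shp16. The 3 values of each group lay within 2 FPKM of each other and far from the other group. The log2 fold change was 1.19 (SE 0.12, 95% interval 0.93 to 1.45, edgeR adjusted p = 0.000375), a 2.28-fold difference. SLC2A1 had a log2 fold change of 0.25, with no overlap between the groups but an adjusted p of 0.195 in the same edgeR test. Neither HK1, at 0.11, nor HK2, at −0.04, passed.

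PFKFB4 (ENSG00000114268, chromosome 3, 48555117 to 48599448 on the minus strand) was at 64.1, 65.4 and 56.9 FPKM in shCont, at 31.6, 48.2 and 52.8 in shp16 and at 112, 116 and 93.1 in shp16+shATR. The shp16+shATR libraries were the highest of all 9, and replicate 1 was the lowest of the shp16 libraries. The log2 fold change against shp16 was 1.27 (SE 0.17, 95% interval 0.90 to 1.65, edgeR adjusted p = 0.00199), a 2.42-fold difference, and without shp16 replicate 1 it was 1.08. PFKFB3, the other bifunctional isozyme among the members, had a log2 fold change of −0.09. PFKFB4 shares 289 bases at its upstream end with UCN2, a gene on the same strand whose counts over the 9 libraries equal 99.7% of those of PFKFB4. UCN2 stood at 113 to 141 FPKM in shp16 and at 170 to 188 in shp16+shATR, a log2 fold change of 0.49 (adjusted p = 0.0737 in the same edgeR test). How reads in the shared stretch were assigned is not given in the sources used here, and their part in the PFKFB4 difference was not tested.

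**Figure D2:**
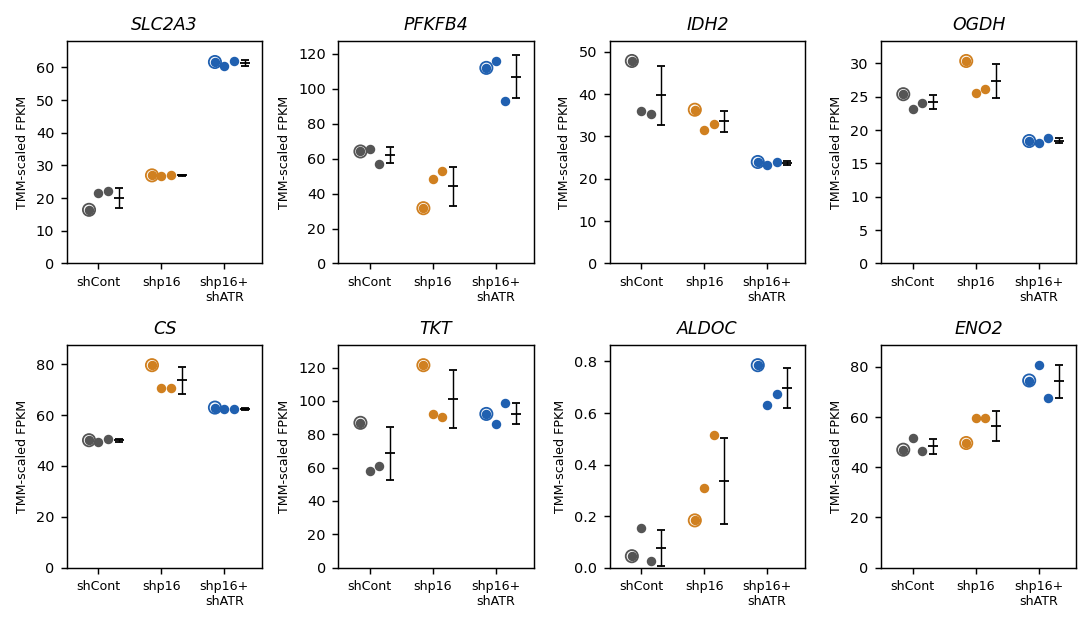
TMM-scaled FPKM of 8 members in each library, with 1 point per library (replicate 1 or library a ringed), and the mean and SD of the 3 libraries of each group beside them in black. SLC2A3 and PFKFB4 are highest in shp16+shATR, IDH2 and OGDH are lowest there, CS is lowest in shCont, and ALDOC stays below 1 FPKM. Each vertical axis starts at 0.

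In the other preparatory steps ALDOC had 27, 29 and 26 counts in shp16+shATR. Its log2 fold change against shp16 was 1.03 and did not pass (edgeR adjusted p = 0.228). No member of the pay-off steps passed, and 7 of these 8 had a log2 fold change above 0. ENO2, the neuronal enolase, had the largest, with 49.7, 59.8 and 59.8 FPKM in shp16 and 74.6, 80.7 and 67.6 in shp16+shATR. These groups did not overlap, at a log2 fold change of 0.40 (adjusted p = 0.0652 in the same edgeR test). Of pyruvate dehydrogenase, PDHB had a log2 fold change of 0.29, PDHA1 of −0.05 and DLAT of −0.10, none of which passed.

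In the TCA cycle 2 of 18 members passed, both downwards. IDH2, the NADP-dependent isocitrate dehydrogenase of mitochondria (ENSG00000182054, chromosome 15, 90626277 to 90645736 on the minus strand), stood at 36.3, 31.6 and 32.9 FPKM in shp16 and at 24, 23.2 and 23.9 in shp16+shATR. In shCont it was at 47.8, 36 and 35.3, so that the shp16+shATR libraries were the 3 lowest of the 9. It fell by 0.50 on the log2 scale (SE 0.13, edgeR adjusted p = 0.0391).

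OGDH, the first component of the 2-oxoglutarate dehydrogenase complex (ENSG00000105953, chromosome 7, 44646171 to 44748665 on the plus strand), was at 25.4, 23.2 and 24 FPKM in shCont, at 30.4, 25.6 and 26.1 in shp16 and at 18.4, 18.1 and 18.8 in shp16+shATR. Its shp16+shATR libraries were again the 3 lowest. It fell by 0.57 against shp16 on the log2 scale (SE 0.10, edgeR adjusted p = 0.00814). DLST, the second component of the same complex, had a log2 fold change of −0.28 (adjusted p = 0.108), and the isocitrate dehydrogenase subunit IDH3A one of −0.38 (adjusted p = 0.0712 in the same edgeR test). The other way, the subunit IDH3G was at 0.37 and the succinate dehydrogenase anchor SDHC at 0.25, neither of which passed. Of the 18 cycle members, 12 had groups that did not overlap, 9 of them with shp16+shATR lower, which is 66.7% beside the 37.7% of all genes tested.

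None of the 5 pentose phosphate members passed, with log2 fold changes from −0.13 for TKT to 0.18 for PGD. The rises of SLC2A3 and PFKFB4 passed at 0.05 in 20 of 20 alternative analyses, with log2 fold changes of 1.16 to 1.23 and 1.08 to 1.42. The fall of OGDH passed in 18 of 20 and that of IDH2 in 11 of 20.

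**Figure D3:**
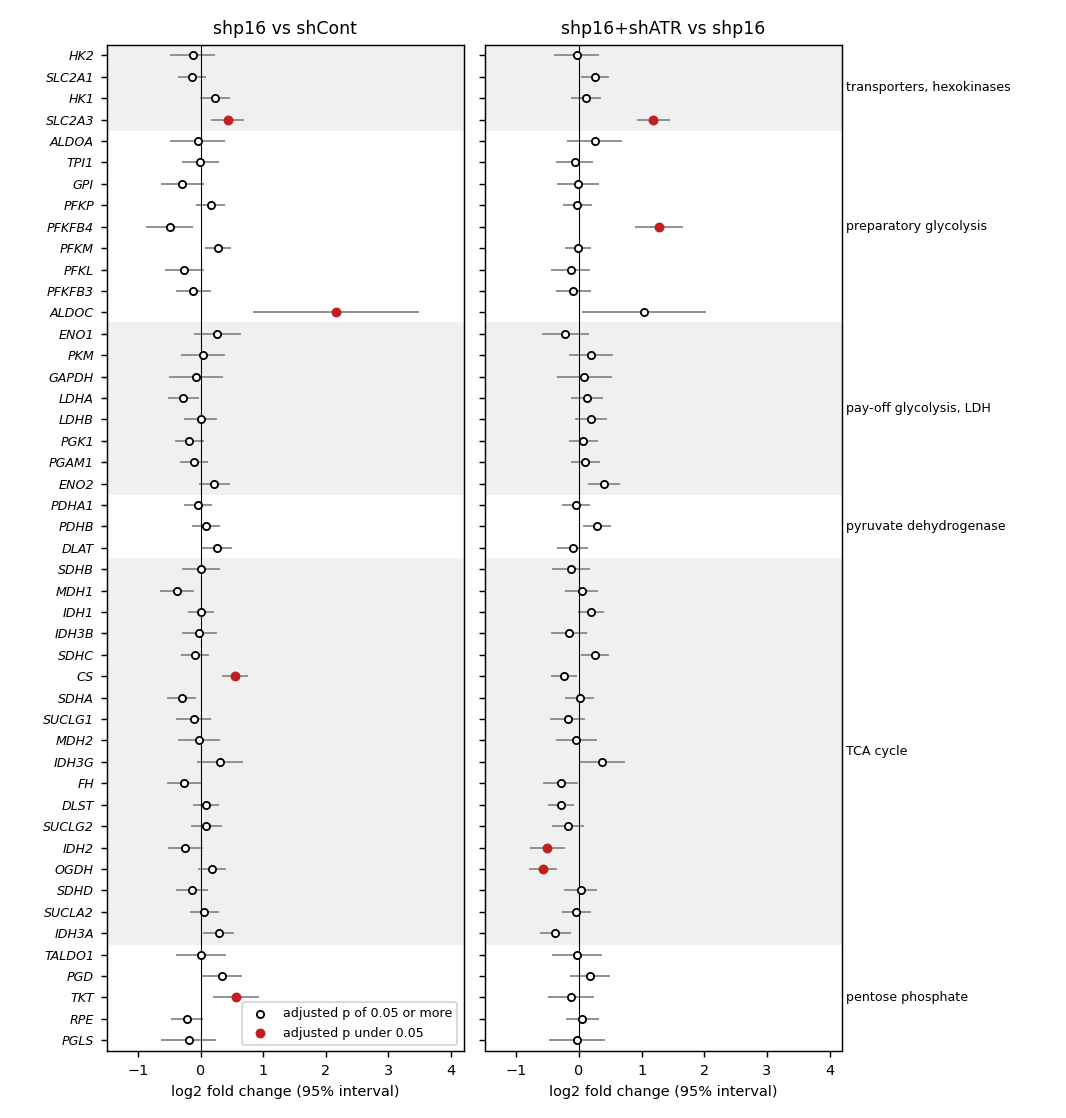
Log2 fold change of each member with its 95% interval from edgeR, for shp16 against shCont on the left and shp16+shATR against shp16 on the right, with adjusted p under 0.05 in filled red. In both panels 4 of 47 members are filled, and most intervals cross 0.

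The comparison of shp16+shATR with shCont shares its libraries with the 2 comparisons above and is given beside them only for the members' own values. Of the 47 members, 12 passed, with 9 higher and 3 lower, which is 25.5% beside 23.6% of all genes tested, 10.9% higher and 12.7% lower. SLC2A3 was higher by 1.62 on the log2 scale, PFKFB4 by 0.78, ENO2 by 0.62 and HK1 by 0.34. ALDOC had a fitted log2 fold change of 3.19 at 9 counts over the 3 shCont libraries. PDHB was higher by 0.38 and CS by 0.32, which for CS is less than its 0.56 in shp16 against shCont. IDH3G was at 49.0, 29.6 and 30.8 FPKM in shCont, at 48.0, 44.5 and 43.3 in shp16 and at 59.1, 57.3 and 59.6 in shp16+shATR, higher by 0.68 in shp16+shATR against shCont. PGD, at 94.9, 71.6 and 71.7 FPKM in shCont and 115, 107 and 120.4 in shp16+shATR, was higher by 0.52. IDH2 was lower by a log2 fold change of −0.75, fumarate hydratase FH of −0.55 and OGDH of −0.39. All 12 had an adjusted p under 0.05 in edgeR's quasi-likelihood test, from 5.09e-06 for SLC2A3 to 0.0466 for HK1. Of 20 alternatives at 0.05, HK1 passed in 10, CS in 11, PDHB in 14, PGD in 15 and OGDH in 17.

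The libraries that stood apart bore on most of these members. In shCont, replicate 1 held the highest of the 3 values for 33 of 47 members (70.2%), against 43.4% of all genes tested. In shp16, replicate 1 did so for 34 of 47 (72.3%), against 42.3% of all genes. The median log2 difference of replicate 1 from the mean of the other libraries of its group was 0.23 over the members in shCont and 0.13 in shp16, beside 0 and 0.0045 over all genes tested. GAPDH, which oxidizes glyceraldehyde 3-phosphate, stood at 1528, 933 and 967 FPKM in shCont and at 1339, 952 and 966 in shp16. TALDO1 was at 284, 167 and 175 in shCont and at 242, 195 and 196 in shp16. For both genes replicate 1 was the highest of its group, and without it the GAPDH values of the 2 groups lay between 933 and 967. Of 46 members other than ALDOC, 28 were above the other libraries in both replicates 1, 3 were below in both and 15 had opposite signs. The largest exceptions were HK2, which was lowest in shCont replicate 1, and PFKFB4, which was lowest in shp16 replicate 1. In shp16+shATR, library c was the highest of 3 for 29 of 47 members (61.7%), against 36.8% of all genes.

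**Figure D4:**
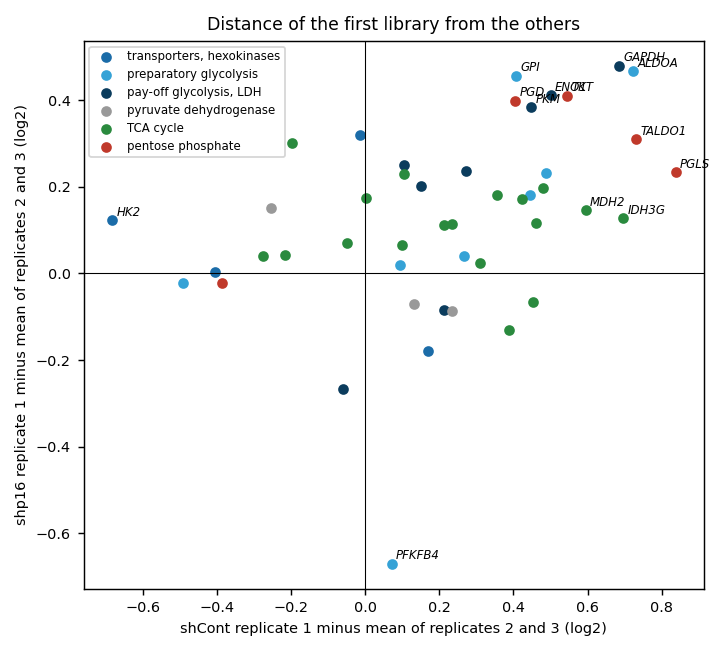
For 46 members, the log2 level in replicate 1 minus the mean of replicates 2 and 3, in shCont on the horizontal and in shp16 on the vertical axis, coloured by pathway step. The points crowd into the upper right quadrant, where 28 of 46 lie, with GAPDH and ALDOA among the farthest out, and PFKFB4 stands alone at the bottom. ALDOC is left out because of its low counts.

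More members passed when replicate 1 of both shCont and shp16 was left out, an analysis chosen after seeing the data that rests on 2 libraries in each of these groups. The 2 shp16 libraries kept differed by a chi-square per degree of freedom of 1.92. The shp16 replicate 1 left out was the highest of 3 for 14 of 21 glycolysis members. Library c of shp16+shATR, also the highest of 3 for 14 of 21, was kept. In shp16+shATR against shp16, 11 of 21 glycolysis members were higher and none lower without both replicates 1. Of 18 TCA cycle members, 7 were lower and 3 higher. Over all genes 26.7% passed in that fit, 12.4% higher and 14.3% lower. The glycolysis members were SLC2A1, SLC2A3, HK1, PFKFB4, ALDOA, GAPDH, PGAM1, ENO2, PKM, LDHA and LDHB, with log2 fold changes of 0.42 for ALDOA, 0.32 for PKM, 0.26 for GAPDH and 0.21 for LDHA. Those lower in the cycle were CS at −0.18, IDH2 at −0.45, IDH3A at −0.38, OGDH at −0.50, DLST at −0.27, SUCLG1 at −0.21 and FH at −0.24. IDH1 at 0.20, IDH3G at 0.41 and SDHC at 0.28 were higher. With shCont replicate 1 alone left out, 13 members passed in that comparison, namely 4 of glycolysis higher, none lower, 6 of the cycle lower, 2 higher, and PDHB higher, beside 19.9% of all genes, 8.94% higher and 11% lower. With shp16 replicate 1 alone left out, 3 members passed, SLC2A3, PFKFB4 and OGDH, beside 3.13% of all genes. The same 3 passed with shp16 replicate 1 kept and replicates 2 and 3 summed, beside 2.46% of all genes. ALDOA in shp16+shATR, at 967, 909 and 1032 FPKM, lay between shp16 replicate 1 at 999 and the other shp16 libraries at 727 and 716.

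In shp16 against shCont, leaving out both replicates 1 gave 12 members higher and 10 lower, which is 46.8% of the members beside 32.7% of all genes, 16.9% higher and 15.8% lower. The pentose phosphate members TKT at 0.62, PGD at 0.34 and TALDO1 at 0.19 were then higher and RPE at −0.33 lower. In glycolysis 6 members were higher, among them ENO1 at 0.30 and PFKM at 0.30, and 6 lower, among them HK2 at −0.37, LDHA at −0.33 and GPI, the isomerase of the second step, at −0.31. Every one of the 4 members that passed with all 9 libraries also passed here. The same analysis of shp16+shATR against shCont gave 35 members, 22 higher and 13 lower, beside 44.3% of all genes, 21.1% higher and 23.2% lower. What sets the libraries apart was not tested.

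The share of an isozyme within its family was computed from the deposited FPKM, which compares genes per length within a library and so does not depend on the scaling between libraries. SLC2A3 made up 16.1%, 22.2% and 22.3% of the summed SLC2A1 and SLC2A3 level in shCont, 29.0%, 26.8% and 26.1% in shp16, and 41.5%, 41.4% and 42.3% in shp16+shATR. The 3 groups did not overlap, and each difference had a two-sided exact permutation p of 0.1, the smallest that 3 libraries against 3 allow. LDHB, the subunit that favours pyruvate, made up 21.9% ± 1.16 (SD, n = 3 here and below) of the LDHA and LDHB level in shCont. It was at 25.4% ± 0.335 in shp16 and at 26.2% ± 0.415 in shp16+shATR, with no overlap between groups and an exact permutation p of 0.1 for each difference.

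HK2 was 72.5% ± 5.51 of the hexokinase level in shCont, with 66.1% in replicate 1 and 75.3% and 76% in the others. It was 68.1% ± 1.98 in shp16 and 65.7% ± 0.380 in shp16+shATR, and shCont and shp16 overlapped. ENO2 was 2.00% ± 0.435 of the enolase level in shCont and 1.93% ± 0.472 in shp16. In shp16+shATR it was 2.88% ± 0.432, and these libraries were the 3 highest. PFKP, the platelet-type phosphofructokinase, held 50.6% to 54.1% of its family in every library, and SUCLG2, the GTP-forming succinyl-CoA synthetase subunit, 74.6% to 78.8%. ALDOC was at most 0.0811% of the aldolase level. With 21 differences of shares computed and a smallest possible p of 0.1, none can pass a threshold of 0.05.

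**Figure D5:**
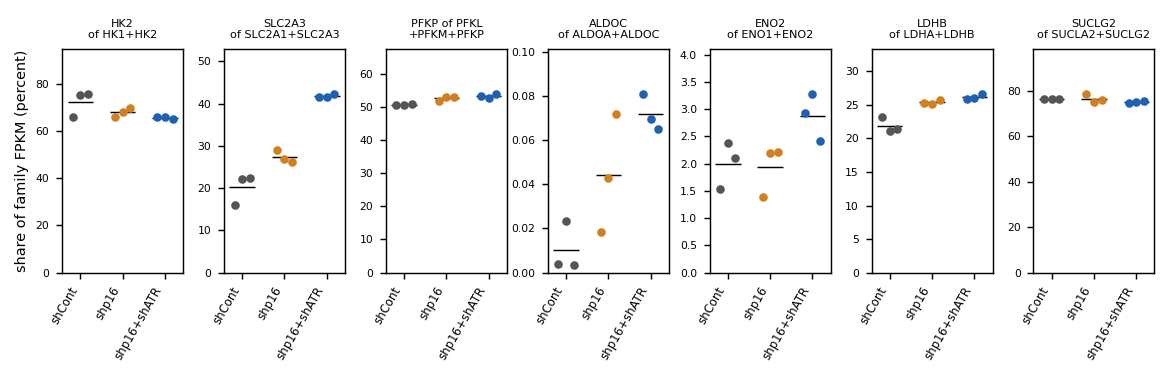
Share of 1 isozyme in the summed FPKM of its family, in percent, with 1 point per library and a line at the mean of the 3 libraries of each group. The SLC2A3 share steps up from shCont to shp16 to shp16+shATR without overlap, and the SUCLG2 and PFKP shares stay within 5 percentage points over all libraries. The vertical axes start at 0 and differ between families.

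Of 49 further genes of these pathways, 34 were expressed enough to be tested. In shp16 against shCont, 3 rose and 4 fell, which is 20.6% of them beside 14.8% of all genes tested. GPD1L, a glycerol 3-phosphate dehydrogenase-like enzyme, rose by 0.91 on the log2 scale, the cytosolic aconitase ACO1 by 0.64 and RPIA, which interconverts pentose phosphates, by 0.48. The transporter SLC2A10 changed by −1.07, the testis-type lactate dehydrogenase LDHC by −1.16 and the endoplasmic reticulum dehydrogenase H6PD by −0.45. With the ATR hairpin added, SLC2A10 rose by 0.77 and the phosphopentomutase PGM2 changed by −0.42, and no other passed. That is 5.88% of the 34, beside 6.22% of all genes tested. In shp16+shATR against shCont, 6 of the 34 were higher and 4 lower, beside 4 higher and 7 lower of the 29 regulators and carriers described next. Over all genes tested, 10.9% passed as higher and 12.7% as lower.

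Of 31 regulators and carriers, 29 were tested, and 4 rose and 5 fell in shp16 against shCont. These are 31.0% of the 29, beside 14.8% of all genes tested. Both subunits of the mitochondrial pyruvate carrier fell, MPC1 from 27.9, 24.1 and 25.3 FPKM in shCont to 14.4, 11.2 and 10.2 in shp16, and MPC2 by 0.71 on the log2 scale. MPC1 did not overlap between these groups and had a log2 fold change of −1.11 (edgeR adjusted p = 0.000378). HIF1A, a transcription factor of the hypoxia response, changed by −0.84, its relative EPAS1 by 0.65, the lactate exporter SLC16A3 by −0.64 and the pyruvate dehydrogenase kinase PDK2 by −0.58. The aspartate carrier SLC25A13 was higher by 0.78, the glucose sensor MLXIP by 0.49 and its target TXNIP by 0.36. Of the same 29, 3 fell and none rose in shp16+shATR against shp16, which is 10.3% of them beside 6.22% of all genes tested. ESRRA, a nuclear receptor of mitochondrial genes, changed by −1.31, from 19.3 to 23.5 FPKM in shp16 down to 8.6 to 9.27, MLXIP by −0.62 and MYC by −0.45. With both replicates 1 left out, 18 of the 34 further genes and 19 of the 29 regulators passed in shp16 against shCont. In that fit 32.7% of all genes passed. For shp16+shATR against shp16 the same fit gave 14 and 9, beside 26.7% of all genes.

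The 250 bases before the RefSeq start (GRCh38.p14) are shown 5′ to 3′ for PFKFB4, CS and TKT, called members of 3 different pathways, since they let the letters of regulators measured here be looked up. IDH2 and ALDOC are in the promoter table too and are not shown, and SLC2A3 and OGDH are named only. These positions are of another genome build than those of the tables and were not compared with them. Capitals mark a match to any of the letters searched on both strands, namely ACGTG and GCGTG (cores of the hypoxia response element), CACGTG (the E-box that MYC and MLXIP bind, which holds ACGTG) and AAGGTCA (the element of ESRRA).
PFKFB4, chr3:48556804-48557053, minus strand: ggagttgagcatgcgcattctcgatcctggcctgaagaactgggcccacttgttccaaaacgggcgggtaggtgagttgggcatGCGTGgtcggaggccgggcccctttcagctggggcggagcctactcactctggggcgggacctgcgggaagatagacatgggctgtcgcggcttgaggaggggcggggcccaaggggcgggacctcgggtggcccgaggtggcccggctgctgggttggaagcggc
CS, chr12:56300331-56300580, minus strand: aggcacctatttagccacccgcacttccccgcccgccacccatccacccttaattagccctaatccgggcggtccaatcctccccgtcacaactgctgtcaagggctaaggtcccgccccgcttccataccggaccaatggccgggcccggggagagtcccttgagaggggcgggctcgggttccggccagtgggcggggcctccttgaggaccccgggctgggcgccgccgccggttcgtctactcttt
TKT, chr3:53256023-53256272, minus strand: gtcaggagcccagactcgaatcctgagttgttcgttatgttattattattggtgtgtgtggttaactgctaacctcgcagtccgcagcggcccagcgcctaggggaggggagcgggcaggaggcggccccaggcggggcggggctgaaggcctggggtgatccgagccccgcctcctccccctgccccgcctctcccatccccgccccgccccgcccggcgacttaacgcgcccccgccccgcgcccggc
PFKFB4 holds 1 GCGTG, at −166 to −162 from its start, and none of the letters occurs in the CS or TKT stretch. Of the called members not shown, IDH2 holds 1 GCGTG on the other strand, at −15 to −11. ALDOC has a match to each of the strings searched. GCGTG is in 32.2% of all 35116 promoter stretches of this length in the table and in 37.3% of the 67 that belong to 44 members. ACGTG is in 18.5% and 29.9%, CACGTG in 6.34% and 10.4%, and AAGGTCA in 3.44% and 8.96%. A match is a string of letters and no measure of binding.

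Some member counts could share reads with other genes. SLC2A14, a close copy of SLC2A3, was listed at 0 counts in all 9 libraries. For 19 members the table also listed pseudogenes, 120 in all, whose counts were 12% of those of SDHA and under 1% of those of each other member. IDH3G overlaps SSR4 on the other strand, whose counts were 202% of those of IDH3G and which had a log2 fold change of −0.09 in shp16+shATR against shCont. IDH3A overlaps ACSBG1, with 14.1% of its counts and a log2 fold change of 0.85 in shp16+shATR against shp16, opposite in sign to that of IDH3A. CS shares 14477 bases on the same strand with a CNPY2 entry listed at 0 counts. ALDOC shares 4150 bases on the same strand with RP11-192H23.4, whose 740 counts over the 9 libraries were 561% of the 132 of ALDOC. RP11-192H23.4 had a log2 fold change of −0.31 in shp16 against shCont and of −0.47 in shp16+shATR against shCont, opposite in sign to those of ALDOC, and neither passed. Whether the counting used strand is not given in the sources used here.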

How the data were processed

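The data were 9 RNA-seq libraries of SKMEL28 cells, 3 each of shCont, shp16 and shp16+shATR. The authors deposited whole-number counts per gene and FPKM values, with gene lengths and GRCh37 coordinates. The submitters' processing notes name STAR 2.6.1, DESeq2 and the build GRCh38, so coordinates are given as the tables have them. The counting program, its annotation and its use of strand are not given in the sources used here. The deposited FPKM could be recomputed from the deposited counts to within a relative difference of 4.22e-07. The count columns of shp16+shATR share 1 name and are called libraries a, b and c in table order.

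Counts were filtered with filterByExpr, scaled by TMM and fitted with edgeR 4.0.16 (R 4.3.3) by the quasi-likelihood test, with 1 coefficient for each group over all 9 libraries and Benjamini-Hochberg adjustment over 15776 genes at 0.05. Isozyme shares came from the deposited FPKM with a two-sided exact permutation test. Total counts were 17314662 to 23588174 per library, but depth alone did not set the SEs. In shp16 against shCont, PFKM had an SE of 0.094 at 11841 shCont counts, and TKT one of 0.17 at 31453. On simulated counts for shp16 against shCont, the fit recovered 60 of 100 genes changed by a log2 fold of 1 and 10 of 100 changed by 0.5, with 5 false calls among 15776. No other gene was changed there, and the changed genes were drawn at any level. In the real comparison 14.8% of all genes passed, so these recoveries need not hold for the members. Tables and figures used pandas 2.3.3 and matplotlib 3.10.9. Alternatives were DESeq2 1.42.0, limma 3.58.1 on FPKM, other scalings, filters and thresholds, a replicate block, and leaving out each library.

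The members and gene lists were chosen with earlier results of these data known. Values in every library are given for each member that passed in shp16 against shCont or shp16+shATR against shp16, or else for the most abundant member of its step. Outside the members, CDKN2A, ATR, the melanocytic markers and listed genes past the threshold were named, except some that are counted but not reported here by name. Other genes given with library values, keratins and overlapping genes were chosen after their values were seen. Replicate numbers were not used to pair the libraries in the main fit. Deviations of libraries with the same number correlated at −0.30 to 0.29 over 9 pairs, and those with unlike numbers at −0.37 to 0.43 over 18. Since the deviations of a group sum to 0, these ranges cannot decide whether the numbers pair the libraries.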

Additional observations from a re-analysis of the deposited data

How the results depend on the processing

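The libraries, taken here as technical replicates of 1 experiment, limit every p-value. At this spread most changes of a log2 fold of 0.5 were missed in simulated counts, in which far fewer genes changed than were called here. Over the members called and the targets, 441 of 548 alternative values kept their side of the threshold, 102 lost the call, 4 gained one and 1 reversed. Values that did not pass could change sign and still count among the 441. One case was ATR in shp16 against shCont, at −0.12 to 0.33 with 1 library left out. The causes of the differences below were not tested.

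Members called in shp16 against shCont (4 in the report) numbered 8 with DESeq2 (18.6% of all genes, against 14.8% in the report), 1 with only the 2 groups compared (7.83%), 2 with limma and a replicate block (9.59%), 22 without the first libraries of shCont and shp16 (32.7%), 1 with shp16 replicates 2 and 3 summed (8.44%) and 1 at a threshold of 0.01. The block in edgeR gave 0, beside 2.79% of all genes, and the blocked edgeR fit was made only for these groups, whose count columns carry numbers. Leaving out 1 library gave 1 to 14, with 14 without shCont replicate 1, beside 8.29% to 25.9% of all genes. In shp16+shATR against shp16 (4) the count was 7 with DESeq2 (10.8% of all genes, against 6.22%), 13 with only the 2 groups (18.9%) and 23 without both first libraries (26.7%). Leaving out 1 library gave 2 to 13 there, beside 1.81% to 19.9% of all genes. In shp16+shATR against shCont (12) the count was 35 without both first libraries (44.3%, against 23.6%) and 6 at 0.01. Leaving out 1 library gave 7 to 24 there, beside 14.5% to 33.3% of all genes. The share of all genes at 0.01 was not computed. Both summed and first-library settings were chosen after seeing the data.

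The members' median log2 fold change ran from −0.073 to 0.14 in shp16 against shCont when 1 library was left out, and from −0.081 to 0.085 in shp16+shATR against shCont, where it was 0.081 without both first libraries.

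For CDKN2A in shp16 against shCont, the log2 fold change passed with DESeq2 at −0.47 and without the filter at −0.46, and ran from −0.60 to −0.26 with 1 library left out. Against shp16 it passed in shp16+shATR at −0.19 without both first libraries. Against shCont it lost the call at −0.57 with only the 2 groups, −0.54 with the limma replicate block and −0.57 at 0.01, with −0.69 to −0.35 leaving out 1 library. ATR in shp16 against shCont reversed from 0.15 to −0.17 (adjusted p = 0.0421 in edgeR) without both first libraries. In shp16+shATR against shp16, ATR lost the call at −0.97 with the limma replicate block and −1.12 at 0.01, and leaving out 1 library gave −1.15 to −1.07, with the call lost without shp16 replicate 1 or any 1 shp16+shATR library.

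Of 147 isozyme share values, 143 moved by less than the spread between libraries. From raw counts in place of FPKM, PFKP differed by 2.96 percentage points in shp16 and 3.82 in shp16+shATR against shCont, ALDOC by 0.0483 and LDHB by 3.29.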
